A study of Mus musculus with 12 samples.

Results

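The response of the *miR-30a*-/- mouse lung to neonatal hyperoxia was examined by RNA-Seq with both sexes pooled. All 12 of the 12 lungs in the series entered the comparison, 6 hyperoxia against 6 room air, chosen by the exposure that the sample titles give, and the sex letter of the title was a term of the model. Every animal, controls included, was of the C57BL/6J strain and carried the deletion of *miR-30a*. The hyperoxia group was kept in 95% oxygen between postnatal days (PND) 1 and 5, the room air group breathed normal air, and whole lungs were taken on PND 21, so that hyperoxia had ended before the harvest. Each group held 3 males and 3 females. The deletion was present in every cell of the body rather than in lung cells alone. Wild-type (WT) lungs were not analysed here, so that what hyperoxia did cannot be compared with its effect in animals that have *miR-30a*. Litters were mixed before the pups were assigned to an exposure, and the lungs were rinsed with cold saline through the right ventricle before freezing.

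Hyperoxia in newborn mice arrests the division of air sacs and the growth of capillaries around them, and serves as a model of bronchopulmonary dysplasia, the chronic lung disease of preterm infants. MicroRNAs such as miR-30a lower the stability and translation of mRNAs whose 3′ ends pair with their seed. *Dll4*, a Notch ligand of endothelial cells, is among the known targets of the miR-30 family. A whole lung also holds blood: reticulocytes, the youngest red cells, have lost their nucleus and still carry the mRNAs of hemoglobin synthesis and cell clearance for a short time, and monocytes circulate through or patrol the capillaries.

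The mature miR-30 sequences are shown because they define what the animals lack and what they keep. They are from RefSeq on GRCm38.p6 (mm10), read 5′ to 3′, with the seed (bases 2 to 8) in capitals.
miR-30a-5p, chr1:23272274-23272295, plus strand: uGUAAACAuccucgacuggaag
miR-30a-3p, chr1:23272315-23272336, plus strand: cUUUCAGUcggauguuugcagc
miR-30c-5p, chr1:23291714-23291736, plus strand: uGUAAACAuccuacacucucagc
miR-30e-5p, chr4:120772660-120772681, minus strand: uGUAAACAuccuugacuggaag
The deleted miR-30a-5p shares its seed GUAAACA with miR-30c-5p and miR-30e-5p, whereas miR-30a-3p has another seed. *Mir30a* and its neighbour *Mir30c-2* had 0 counts in all 12 lungs, so that this assay does not measure the deletion. *Xist* and *Ddx3y* followed the sex letter in every lung.

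Counts on genes totalled 8763033 to 16741694 per lung. Levels are given in CPM, the usual unit of counts relative to library total, after upper-quartile scaling of the libraries. CPM is not divided by gene length. A gene with 3 counts, taken as the floor, had 0.191 to 0.327 CPM on this scale, which covers counting error only. The alveolar type 2 cell genes, which make surfactant, summed to 7849 to 17513 CPM in the room air lungs and to 7043 to 14571 CPM in the hyperoxia lungs, so that lung tissue was present in every library. Room air M1 stood apart: its skeletal muscle genes summed to 7498 CPM against 622 to 892 CPM in the other 11 lungs, and its basal and squamous cell genes to 981 CPM against 113 to 152 CPM. A background of reads on genes that lung does not use was gauged from olfactory and vomeronasal receptor genes, which took 0.404% to 0.930% of all counts. In hyperoxia lungs this receptor share averaged 0.735% ± 0.147 (SD, n = 6) and in room air lungs 0.653% ± 0.175 (SD, n = 6), a difference of 0.0824 percentage points that was within the spread (exact permutation test, two-sided, p = 0.4).

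In the pooled comparison, 17 genes fell after hyperoxia and 0 rose. Among the genes that fell, several are known from red cells: the iron importer *Slc25a37*, the heme enzyme *Alas2*, the globins *Hbb-bt* and *Hba-a2*, and *Bpgm*, *Mkrn1* and *Tent5c*. With them fell the monocyte genes *Adgre4* and *Plac8*, the interferon-stimulated gene *Rsad2*, *Ube2l6* and *Isg20*, which interferon is also known to induce, and the purine enzyme *Gda*. The falls ranged from 1.53-fold for *Adgre4* to 2.42-fold for *Hbb-bt*. To be called, a gene had to change by over 1.5-fold with an adjusted p (Benjamini-Hochberg) under 0.05 in edgeR's quasi-likelihood test. Of 45828 genes tested, 0.0371% were called lower and 0% higher. In 13 of the 17 genes every hyperoxia lung lay under every room air lung. Over all genes tested 55 (0.12%) were apart in this way, and 43 (0.0938%) were apart with hyperoxia on top. Before adjustment 1016 genes were lower at p under 0.05 (2.22%) and 1062 higher (2.32%). The smallest adjusted p of any higher gene was 0.166. DESeq2 and limma-voom also called 0 genes higher and called 32 and 33 lower, with 17 and 13 of the 17 among them, respectively. Other alternatives called fewer. TMM scaling called 10 lower (9 of the 17) and subtraction of the background 12 (8 of the 17). Among genes with a background share under 25%, which include all 17, 5 were called lower (3 of the 17). With 1 to 3 unwanted factors estimated from residuals (RUVr, the study's method, with a number of factors that its methods do not state), 52 to 77 genes were called higher and 40 to 49 lower.

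The number of calls rested on single lungs. All 17 genes stayed lower in all 12 fits that left out 1 lung. They were chosen for their fall in these same lungs, so that these fits do not test the direction. The count of lower genes was 1 without hyperoxia F2, 3 without hyperoxia F5, 6 without hyperoxia M2, 50 without hyperoxia M1, 5 without room air F2, 5 without room air M5, 9 without room air M4 and 11 without room air F6. *Slc25a37* and *Gda* kept their call in 11 of these fits, *Adgre4* and *Plac8* in 10, *Ube2l6* in 8, and the other called genes named here in 3 to 7. Without room air M1, the library with muscle and squamous reads, the 17 genes were called again among 25 lower and 0 higher genes.

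**Figure D1:**
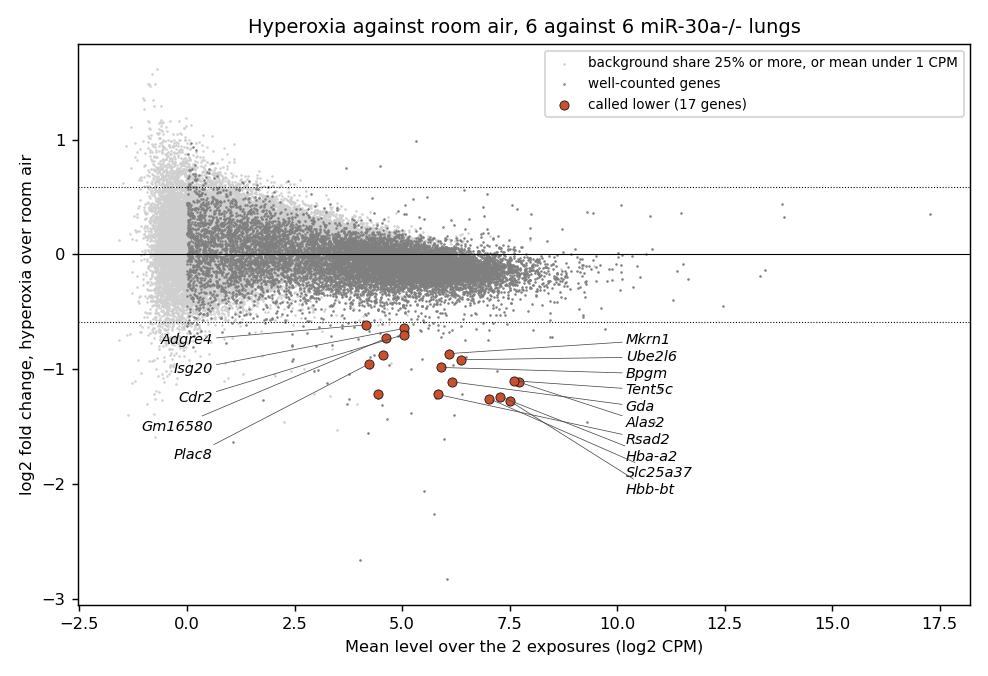
Log2 fold change of hyperoxia over room air against the mean level in log2 CPM, 1 point per gene tested, with dotted lines at a 1.5-fold change. The 17 called genes (red, 15 of them named) all lie under the lower line, and well-counted genes (dark grey, background share under 25% and mean of at least 1 CPM) have a median of −0.0854.

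*Slc25a37* (ENSMUSG00000034248, chr14:69241848-69285112 of mm10), mitoferrin 1, which carries iron into the mitochondria of maturing red cells, ran from 147 to 245 CPM (median 176) in room air. After hyperoxia it ran from 53.2 to 112 CPM (median 76.7), and the exposures did not overlap. It fell by 1.26 on the log2 scale (standard error 0.18, adjusted p = 0.00513).

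*Alas2* (ENSMUSG00000025270, chrX:150547375-150570638), the first and rate-limiting enzyme of heme synthesis in red cells, ran from 227 to 366 CPM (median 280) in room air and from 83.9 to 206 CPM (median 129) after hyperoxia. It fell by 1.11 (standard error 0.20, adjusted p = 0.0326). The hyperoxia lung nearest to the controls was M3, and the one farthest from them was F2. *Bpgm*, which makes the 2,3-bisphosphoglycerate that loosens oxygen from hemoglobin, ran from 62.3 to 104 CPM in room air and from 22.04 to 57.7 CPM after hyperoxia. *Mkrn1*, a ubiquitin ligase, ran from 66.0 to 121 CPM and from 40.5 to 62.2 CPM. These genes did not overlap between exposures either, and the log2 change was −0.98 for *Bpgm* and −0.86 for *Mkrn1*.

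The adult globins had log2 changes under −1, with a wide spread among hyperoxia lungs. *Hbb-bt* (chr7:103812524-103813996) ran from 209 to 322 CPM in room air and from 40.9 to 186 CPM after hyperoxia (log2 change −1.28, standard error 0.24, adjusted p = 0.048). *Hba-a2* ran from 174 to 269 CPM and from 36.4 to 180 CPM, so that hyperoxia M3 reached into the room air range (log2 change −1.24, adjusted p = 0.048). Their partners did not pass: *Hba-a1* had a log2 change of −1.46 (standard error 0.31, adjusted p = 0.132) and *Hbb-bs* one of −1.17 (standard error 0.29, adjusted p = 0.382). Reads of *Hba-a1* and *Hba-a2*, near-identical copies, may have been split between them, and those of *Hbb-bs* and *Hbb-bt* likewise. Summed over all 7 globin genes, levels ran from 4899 to 7523 CPM (median 5791) in room air and from 1170 to 4451 CPM (median 2244) after hyperoxia. Every hyperoxia lung was thus under every room air lung in total globin mRNA. The globins, *Gm16580*, *Tent5c*, *Isg20* and, further on, *Slc4a1*, *Car1*, *Car2*, *Fech*, *Dcaf12*, *Ube2o*, *Slc25a39*, *Prdx2*, *Klf1*, *Gata1*, *Ifitm6*, *Oasl2*, *Nusap1*, *Msmo1* and *Cyp51* lie outside the rule for naming genes and were named after their values were seen. In a whole lung, fewer red cells and less RNA per red cell cannot be told apart, and how much blood the rinse left in each lung is not recorded in the sources used here.

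The called genes ranked the lungs alike. Within the room air group, F2 was highest for 15 of the 17 genes and M1 lowest for 12. Within the hyperoxia group, F2 was lowest for 12 and M3 highest for 10.

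**Figure D2:**
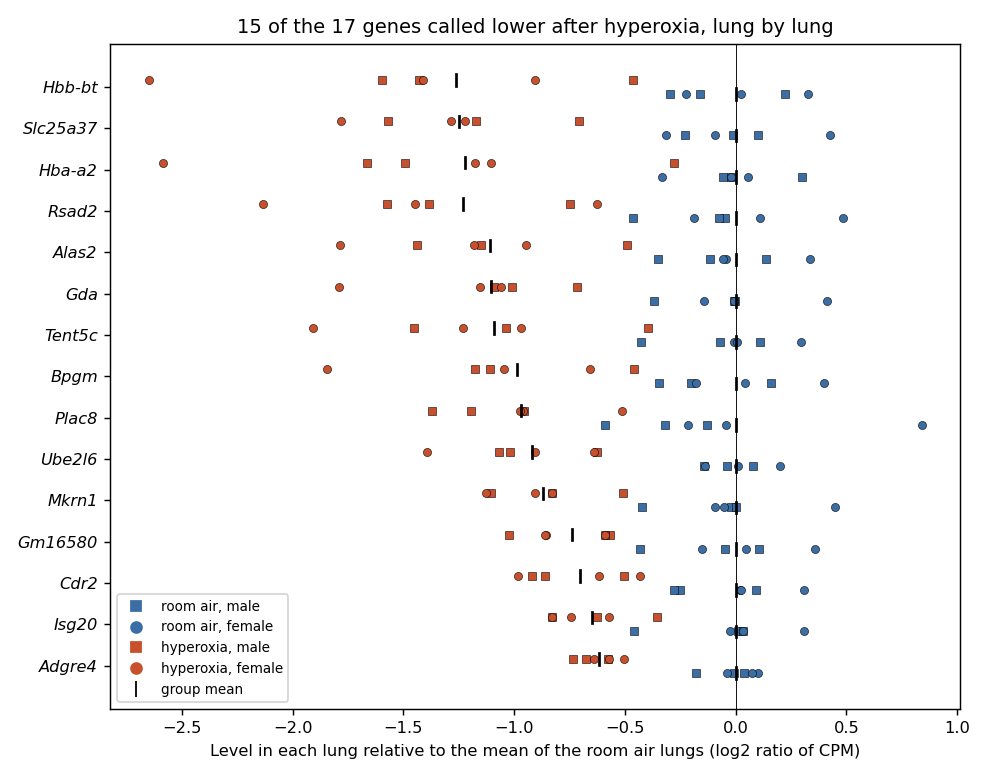
Level of 15 of the 17 called genes in each lung, as the log2 ratio of its CPM to the mean of the 6 room air lungs (squares males, circles females, ticks group means). Hyperoxia lungs (red) lie left of the room air lungs (blue) without overlap in 11 of these genes, and hyperoxia M3 is the rightmost red point for 10 genes.

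The stretch of 130 bases before the start site is shown for 3 of the called genes with different roles, a heme enzyme, a globin and an interferon-stimulated gene. The sequences are from RefSeq on GRCm38.p6, before the start site that RefSeq gives, 5′ to 3′ on the strand of the gene. Capitals mark matches, on either strand, to AGATAA or TGATAA (the GATA motif), CCNCNCCC (the core bound by KLF-type factors), the core of the interferon-stimulated response element (ISRE) and TATAAA.
*Alas2*, chrX:150547287-150547416, plus strand: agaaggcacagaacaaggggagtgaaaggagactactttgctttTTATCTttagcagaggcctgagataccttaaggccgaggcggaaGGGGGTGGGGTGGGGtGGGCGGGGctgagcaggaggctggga
*Hbb-bt*, chr7:103813924-103814053, minus strand: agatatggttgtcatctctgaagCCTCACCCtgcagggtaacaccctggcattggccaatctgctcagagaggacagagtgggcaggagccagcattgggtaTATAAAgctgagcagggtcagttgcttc
*Rsad2*, chr12:26456453-26456582, minus strand: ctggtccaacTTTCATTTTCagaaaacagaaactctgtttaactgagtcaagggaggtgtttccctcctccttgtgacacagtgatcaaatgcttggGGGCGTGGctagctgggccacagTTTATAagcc
In *Alas2* the GATA match lies 86 to 81 bases before the start site, with 3 overlapping CCNCNCCC matches from 42 to 28 bases and another from 26 to 19 bases before it. *Hbb-bt* holds CCNCNCCC 107 to 100 bases and TATAAA 28 to 23 bases before its start site. *Rsad2* holds the ISRE core 120 to 111 bases before it. Among 32851 promoter windows of this length, 8.3% hold the GATA motif, 35.8% CCNCNCCC, 1.35% the ISRE core and 6.83% TATAAA. Promoters were listed for 13 of the 17 called genes, of which 2 hold the GATA motif, 9 CCNCNCCC, 1 the ISRE core and 2 TATAAA. A match is a description of the letters and no measurement of binding.

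Of the 12 erythroid genes tested, 6 fell and 11 had an unadjusted p under 0.05 in the lower direction, where 5.94% of the 12828 well-counted genes did (0.85% in the higher direction). Their median log2 change was −1.07, against 0.031 over all genes tested and −0.0854 over well-counted genes. *Slc4a1*, the anion exchanger band 3 of the red cell membrane, had −1.02 (adjusted p = 0.114), *Car2*, a carbonic anhydrase, −0.62, and the 1 member without a small p, *Car1*, −0.10. The summed erythroid level ran from 5454 to 8486 CPM in room air and from 1428 to 4994 CPM in hyperoxia lungs. Further red cell genes were listed by role after the values had been seen. The 8 heme synthesis genes had a median of −0.09, and 3 had an unadjusted p under 0.05 and a lower level, among them *Fech*, which inserts the iron (log2 change −0.74). The 12 genes of ubiquitin conjugation and organelle clearance in reticulocytes had a median of −0.49. Of these, *Ube2l6* and *Mkrn1* fell, and *Dcaf12* (−0.67) and *Ube2o* (−0.75) were under an unadjusted p of 0.05 with 4 others. The 8 iron and mitochondrial carriers had a median of −0.12 with 2 under an unadjusted p of 0.05, *Slc25a37* and *Slc25a39* (−0.66). The 16 genes of the red cell membrane and its skeleton had −0.13, with 5 lower at an unadjusted p under 0.05 and 5 with a log2 change over 0. With the receptor share as covariate they had −0.20 and 8 lower, and their median was −0.27 within males and −0.04 within females. Background made up 25% or more of the counts in 8 of the 16. The 9 genes of red cell metabolism and peroxide removal had −0.47, with 6 lower at an unadjusted p under 0.05, among them the peroxide-removing enzyme *Prdx2* (−0.57).

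For the transcription and growth factors of red cell precursors, listed after the values were seen, the median over 9 genes was −0.03, with 1 lower at an unadjusted p under 0.05. *Klf1*, which switches on adult beta globin, ran from 5.22 to 6.70 CPM in room air and from 5.92 to 6.94 CPM after hyperoxia (log2 change 0.11, standard error 0.14). *Gata1*, the master regulator of red cell genes, ran from 7.48 to 14.9 CPM and from 6.57 to 16.4 CPM (log2 change −0.04, standard error 0.13). Background made up 28.8% of the *Klf1* counts and 26.3% of the *Gata1* counts. Platelet and megakaryocyte genes, the nearest kin of the red cell line, had a median of 0.15, with 0 of 8 under an unadjusted p of 0.05. With the receptor share as covariate 3 of the 8 were higher at this p, and with background subtracted 1.

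Among monocyte genes, *Adgre4* (ENSMUSG00000032915, chr17:55749984-55853662), an adhesion receptor of patrolling monocytes and macrophages, did not overlap between exposures. Its level ran from 19.2 to 23.3 CPM (median 21.9) in room air and from 13.1 to 15.3 CPM (median 14.2) in hyperoxia lungs. It fell by 0.61 on the log2 scale (standard error 0.10, adjusted p = 0.00854), and background made up 22.6% of its counts. *Plac8*, expressed in monocytes and other leukocytes, fell by 0.96 (standard error 0.15, adjusted p = 0.00967). Its exposures overlapped, from 16.4 to 44.2 CPM in room air and from 9.53 to 17.3 CPM after hyperoxia, and the highest value was that of room air F6. Of 16 genes of interstitial macrophages and monocytes, 1 (*Plac8*) fell, and 6 had an unadjusted p under 0.05 and a lower level, a count that was 3 without room air F6. The median of this list was −0.17. Classical and patrolling monocyte genes, 2 lists drawn up after the values were seen, had medians of −0.27 and −0.25, with 5 of 11 and 6 of 14 lower at an unadjusted p under 0.05. *Cx3cr1*, the fractalkine receptor of patrolling monocytes, ran from 22.9 to 27.6 CPM and from 17.7 to 21.9 CPM without overlap (log2 change −0.29, adjusted p = 0.96). *Ifitm6*, another gene of patrolling monocytes, had −0.68 (adjusted p = 0.0899). Medians of other leukocyte genes were −0.01 for neutrophil genes, 0.00 for alveolar macrophage genes and 0.08 for T and natural killer cell genes, each with 0 members under an unadjusted p of 0.05. With the receptor share as covariate, 1 of 14 neutrophil and 4 of 17 alveolar macrophage genes were higher at this p. Background made up 25% or more of the counts in 5 of 14, 5 of 17 and 10 of 16 of these genes, respectively. For the interstitial macrophage and monocyte list it did so in 4 of 16. B and plasma cell genes had −0.14, with 5 of 15 lower at an unadjusted p under 0.05, and −0.24 with 6 of 15 without room air M1. Within males the median was −0.07 with 0 of 15 lower, and within females −0.33 with 7 of 15. Of well-counted genes, 24.6% were lower at this p within females.

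Of the 22 listed interferon-stimulated genes 1, *Rsad2*, fell after hyperoxia. *Ube2l6* and *Isg20*, which interferon is also known to induce, are not on that list and fell too. *Rsad2* (ENSMUSG00000020641, chr12:26442746-26456452), viperin, an antiviral enzyme, ran from 58.5 to 113 CPM (median 77.3) in room air and from 18.4 to 52.3 CPM (median 30.2) in hyperoxia lungs. It fell by 1.22 (standard error 0.20, adjusted p = 0.0113). *Ube2l6*, the conjugating enzyme for ISG15, ran from 98.5 to 125 CPM and from 41.4 to 70.5 CPM and fell by 0.92 (standard error 0.15, adjusted p = 0.0113). *Rsad2*, *Ube2l6* and *Isg20*, an exonuclease, were highest in room air F2, as most of the red cell genes were. *Isg15*, *Bst2* and *Oasl2*, and with them *Tap1*, which carries peptides to MHC class I, were highest in room air F6, where the 22 listed genes summed to 1276 CPM against 380 to 615 CPM in the other 11 lungs. All 22 had a log2 change under 0, with a median of −0.39, and 12 had an unadjusted p under 0.05. *Isg15*, the ubiquitin-like protein of this response, had −0.79 (adjusted p = 0.569) and *Bst2*, tetherin, −0.60 (adjusted p = 0.451). Without room air F6, a check added after the values were seen, the median was −0.21 and 7 of 22 had an unadjusted p under 0.05.

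*Gda* (ENSMUSG00000058624, chr19:21391307-21473445), guanine deaminase, which turns guanine into xanthine, ran from 75.6 to 130 CPM (median 97.2) in room air and from 28.3 to 59.4 CPM (median 46.3) after hyperoxia. It fell by 1.11 (standard error 0.16, adjusted p = 0.00513) without overlap. Of the 14 genes of purine salvage and breakdown it was the only one called, and the others had 0 members under an unadjusted p of 0.05. *Cdr2*, named for the cerebellar degeneration autoantigen it encodes, ran from 33.8 to 50.7 CPM and from 20.7 to 30.4 CPM and fell by 0.70 (standard error 0.12, adjusted p = 0.0216). *Tent5c*, a poly(A) polymerase, fell by 1.10 and *Isg20* by 0.65, both with an adjusted p of 0.048 and with overlapping exposures. The last called entry, *Gm16580*, is annotated as a processed pseudogene and fell by 0.73. *Nusap1*, a mitotic spindle protein, passed the adjusted p (0.0245) but not the fold (log2 change −0.58).

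Of the genes with higher levels after hyperoxia, none was called, and those with the smallest p are given here. *Cyp26b1*, which breaks down retinoic acid, ran from 22.8 to 29.6 CPM (median 26.2) in room air and from 24.9 to 98.9 CPM (median 50.3) after hyperoxia. Its log2 change was 0.98 (standard error 0.21, adjusted p = 0.166). Hyperoxia M1 was highest and hyperoxia F4 lay within the room air range. *Cyp26b1* was called higher in 2 of the 12 fits that left out 1 lung, without hyperoxia F4 (log2 change 1.14) and without hyperoxia M1 (0.76). It was also called in 4 of 17 other alternatives, which were the fit of the males alone, the likelihood ratio test, the exposure averaged over the sexes and RUVr with 1 factor. The next were *Klk4*, a serine protease, at 0.52, *Rbbp8nl* at 0.40, *Pxmp2*, a peroxisomal membrane protein, at 0.42, *Shbg*, which binds sex steroids, at 0.41, and *S100a2*, a calcium-binding protein, at 0.44. *Klk4*, *Pxmp2* and *Shbg* were higher in every hyperoxia lung than in every room air lung, at adjusted p of 0.666 to 0.96. *Edn1*, the vasoconstrictor endothelin 1, had 0.30, and the lipase inhibitor *Angptl4*, a target of PPAR receptors, had 0.38. *Zbtb16*, a glucocorticoid-induced transcription factor, ran from 41.7 to 92.4 CPM and from 55.1 to 159 CPM (log2 change 0.56, adjusted p = 0.96). *Angptl4* and *Zbtb16* were the highest members of their lists. The 18 genes of PPAR-gamma and lipid uptake had a median of −0.06, with 11 under 0, and 1 lower and 2 higher at an unadjusted p under 0.05. The 17 glucocorticoid-induced genes had −0.03, with 9 under 0, and 0 lower and 2 higher at this p.

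Well-counted genes as a whole lay slightly under 0, and 71.5% of them had a negative log2 change. Lists of lung genes are therefore given beside this shift of −0.0854. Of well-counted genes, 24.6% were lower at an unadjusted p under 0.05 within females and 0.881% within males. This share was 7.76% under the receptor share covariate (5.14% higher), 9.49% without room air M1 and 7.9% without room air F6. All 18 heat shock and chaperone genes had a log2 change under 0, with a median of −0.37, and 14 had an unadjusted p under 0.05. Under the receptor share covariate the median was −0.24, and 1 of 18 was under an unadjusted p of 0.05 within males and 17 of 18 within females. *Dnajb1*, a co-chaperone, had −0.50 (adjusted p = 0.382) and *Hspb1*, a small heat shock protein, −0.48. The 16 genes of MHC and antigen presentation were likewise all lower in mean, with a median of −0.37 and 8 under an unadjusted p of 0.05, a count that was 16 without room air M1 and 5 without room air F6 or under the receptor share covariate. It was 0 of 16 within males (median −0.14) and 12 of 16 within females (−0.57). *Ctss*, the protease that trims the invariant chain, had −0.45 and *H2-DMb1*, which loads peptides, −0.36. Nuclear genes of oxidative phosphorylation had a median of −0.20, with 21 of 77 lower at an unadjusted p under 0.05. Under the receptor share covariate the median was −0.13, and it was −0.08 within males (2 of 77 lower) and −0.31 within females (32 of 77). The 13 protein genes of the mitochondrial genome had 0 counts throughout and were not tested.

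Of the genes of the lung's own cells, none was called. Alveolar type 2 cell genes had a median of −0.20 and 0 of 18 under an unadjusted p of 0.05 (2 of 18 without room air M1 or without room air F6), and alveolar type 1 cell genes, of the thin gas-exchange surface, had −0.23 and 2 of 16 (4 of 16 without room air M1 or without room air F6). General capillary endothelium had −0.10 and 0 of 14. With the receptor share as covariate the alveolar type 2 and capillary medians were 0.02 and 0.07, and within males the 3 medians were 0.15, 0.06 and 0.17, so that their direction was not stable. Within females they were −0.55, −0.45 and −0.36, with 10 of 18, 8 of 16 and 4 of 14 lower at an unadjusted p under 0.05. In that sex 24.6% of all well-counted genes were lower at this p, with a median of −0.224. The 12 aerocyte genes, of the alveolar capillaries, had −0.09 and 1 of 12, with 3 members over 0. Their median was 0.02 under the receptor share covariate, 0.09 within males and −0.29 within females. *Apln*, a peptide of alveolar capillary cells and sprouting vessels, was the lowest member at −0.57 (adjusted p = 0.443). The genes of elastic fibers and collagen, which shape the alveolar septum, had −0.18 and 5 of 24 (3 of 24 without room air M1, 0 within males, and 9 with a median of −0.10 under the receptor share covariate), with *Fbln1* at −0.41, *Col1a1* at −0.53 and *Col3a1* at −0.54. Within females 8 of these 24 were lower at an unadjusted p under 0.05, with a list median of −0.31 against −0.11 within males. Cell cycle genes had −0.05 and 4 of 29, with 9 of 29 and a median of −0.10 under the receptor share covariate, and their median was −0.21 within males and 0.07 within females. Background made up 25% or more of the counts in 21 of these 29 genes. *Ube2c*, which drives exit from mitosis, was lower in every hyperoxia lung (log2 change −0.52, adjusted p = 0.156), and the proliferation marker *Mki67* had −0.36. Cholesterol synthesis genes, a list made after the values were seen, had −0.24 and 10 of 20, with *Msmo1* at −0.47 and *Cyp51* at −0.49. The p53, NRF2 and hypoxia-inducible factor target lists, which cover DNA damage, oxidant and oxygen responses, had medians of −0.12, −0.18 and −0.09, with 2 of 20, 3 of 20 and 2 of 19 lower at an unadjusted p under 0.05. The p53 count was 1 without room air M1 and the NRF2 count 5 without room air F6. Within males these medians were 0.07, −0.09 and −0.01, and under the receptor share covariate −0.03, −0.11 and −0.05, with 1, 6 and 3 genes lower. Within females they were −0.28, −0.27 and −0.14, with 7 of 20, 8 of 20 and 5 of 19 lower at an unadjusted p under 0.05. In none of the lists named in this paragraph and the one before was a gene called.

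**Figure D3:**
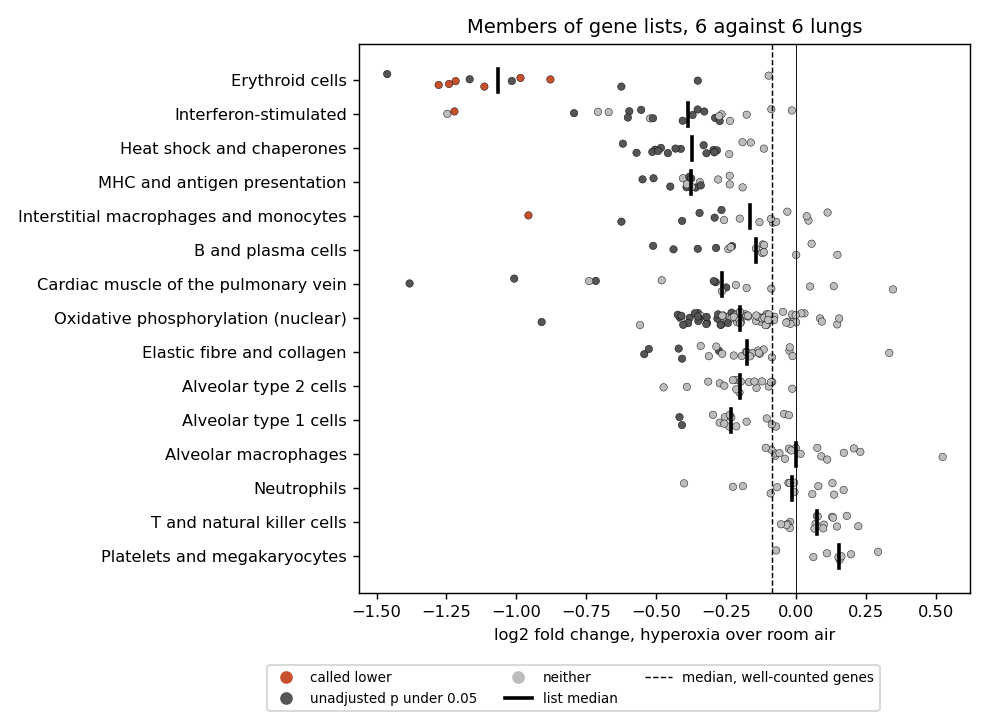
Log2 fold change of the tested members of 15 gene lists (1 point per gene, red if called, dark grey if under an unadjusted p of 0.05), with list medians (bars) and the median of well-counted genes (dashed line, −0.0854). The erythroid genes have a median of −1.07 and the other lists medians from −0.39 to 0.15.

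The miR-30 targets, compared here between exposures and not between genotypes, had a median of −0.08, with 0 of 23 under an unadjusted p of 0.05. Their median was −0.15 without room air M1, 0.07 within males and −0.24 within females. At this p, 5 were lower and 2 higher within females and 0 within males. *Dll4* (ENSMUSG00000027314, chr2:119325784-119335962) ran from 37.3 to 81.8 CPM in room air and from 39.7 to 70.3 CPM after hyperoxia. Its log2 change was −0.07 (standard error 0.16, adjusted p = 0.97), and the direction turned with the receptor share as covariate. The 20 Notch genes had a median of −0.08 with 1 under an unadjusted p of 0.05, and the 18 genes of VEGF and angiopoietin signalling −0.07 with 1 lower and 1 higher. With the receptor share as covariate the miR-30 target, Notch and VEGF medians were 0.03, 0.05 and 0.03. At an unadjusted p under 0.05, 1 Notch gene was then lower and 4 higher, and 2 VEGF and angiopoietin genes lower and 6 higher. Within females the Notch and VEGF medians were −0.26 and −0.23, with 3 and 4 genes lower at this p, and within males 0.10 and 0.14.

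The 17 called genes were lower in both sexes. They were chosen in the pooled fit of these same males and females, so that this does not test either sex apart. In fits of each sex alone, 1 of the 17 was called in males and 15 in females. The log2 changes of the 17 genes ran from −1.22 to −0.47 in males and from −1.55 to −0.62 in females, each from 3 lungs against 3. For 15 of the 17 the value was lower in females. The difference between the sexes was tested as the interaction of sex and hyperoxia, which called 0% of genes, 0 of 45828 (edgeR, smallest adjusted p 0.578, 3875 genes with an unadjusted p under 0.05). Among the called genes the smallest unadjusted interaction p was 0.0547, for *Gda*, with a log2 change of −0.81 in males and −1.41 in females. *Adgre4* had −0.61 in males and −0.62 in females. *Cyp26b1* had 1.404 in males and 0.56 in females and *Zbtb16* 1.03 and 0.09, and neither difference passed adjustment. Heat shock genes had a median of −0.08 within males and −0.61 within females, where well-counted genes had medians of 0.0464 and −0.224. For erythroid genes the medians were −0.88 and −1.21. Fitted within 1 sex, the comparison called 1 gene higher and 1 lower in males and 25 higher and 138 lower in females. The receptor share was 0.754% after hyperoxia and 0.547% in room air in females, and 0.717% and 0.759% in males. The exact permutation test gave p = 0.2 within females and p = 0.8 within males, where 3 lungs against 3 cannot give a p under 0.1. The difference between the sexes in this share was not tested. The most counted gene of a library took 6.04% to 16.6% of the counts in room air females and 15.5% to 22.4% in hyperoxia females. The part of either in these counts and medians was not tested.

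**Figure D4:**
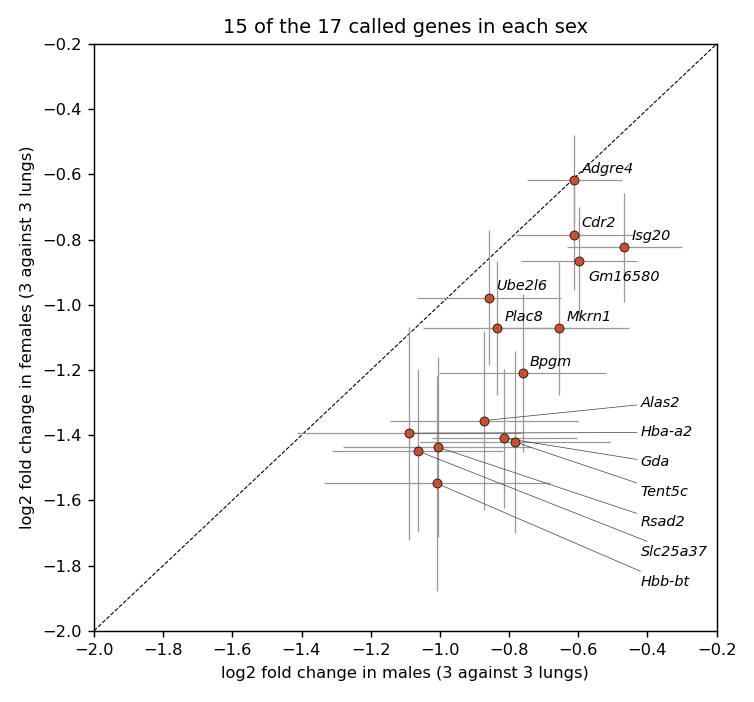
Log2 fold change of 15 of the 17 called genes in females against males, with standard errors as bars, and the line of equal change (dashed). All 15 points lie under 0 on both axes and under the dashed line.

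The medians of muscle and squamous cell lists rested on room air M1, and that of the red cell genes did not. Skeletal muscle genes had a median log2 change of −0.68 with all lungs and of 0.10 without room air M1, and basal and squamous cell genes −0.56 and 0.06. *Ttn*, the giant spring of the sarcomere, stood at 3950 CPM in room air M1 and at 233 to 462 CPM in the other 11 lungs. *Ckm*, muscle creatine kinase, stood at 132 CPM there and at 4.06 to 10.8 CPM elsewhere. Cardiac muscle genes, which the pulmonary veins of the mouse express, kept a median of −0.17 without M1, against −0.26 with all lungs. *Myh6*, the atrial myosin heavy chain, ran from 39.5 to 104 CPM in room air and from 34.5 to 58.4 CPM after hyperoxia (log2 change −0.72, adjusted p = 0.243), and was −0.71 without M1. *Myl7*, the atrial light chain, had −1.01 and −1.05. The erythroid median was −1.07 with all lungs and −1.16 without M1.

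**Figure D5:**
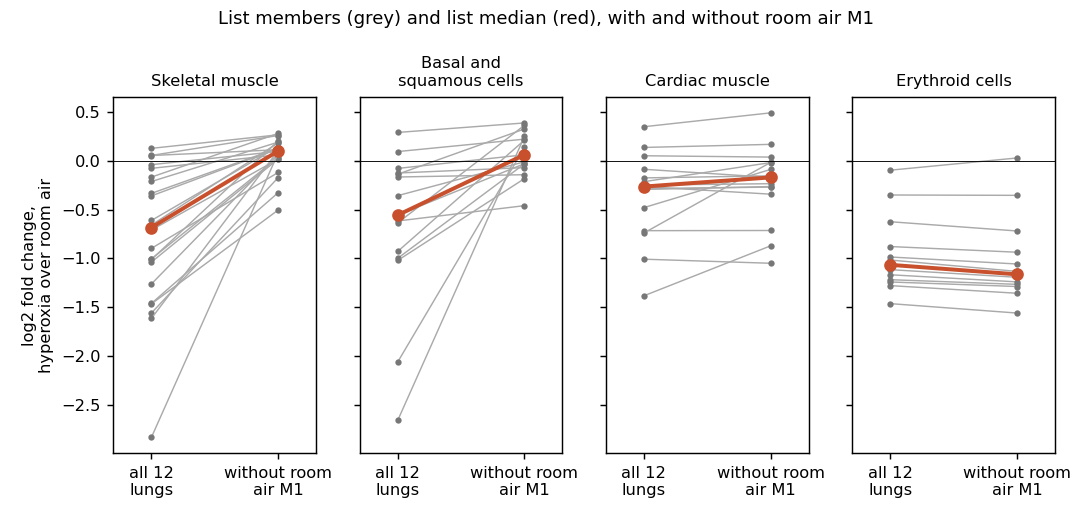
Log2 fold change of list members (grey) and list medians (red) with all 12 lungs and without room air M1. The medians of skeletal muscle and of basal and squamous cell genes go from −0.68 to 0.10 and from −0.56 to 0.06, and the erythroid median from −1.07 to −1.16.

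When the receptor share entered the model as a covariate, the median of well-counted genes was −0.00434 and that of all genes −0.00288. The erythroid median was then −1.03, with 11 of 12 genes still under an unadjusted p of 0.05. The calls changed more: 15 genes were lower and 1 was higher, and of the 17 genes only *Adgre4*, *Gm16580*, *Isg20*, *Cdr2* and *Ube2l6* were called again, although all 17 stayed lower. Within this model *Slc25a37* had −1.22. Receptor genes themselves had a median of 0.16 (olfactory) and 0.18 (vomeronasal) in the pooled comparison and of −0.01 for both under the covariate. The part of background and of residual blood in the list medians was not tested.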

How the data were processed

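Whole-lung RNA of 12 *miR-30a*-/- mice was sequenced, 6 per exposure. The deposited values are raw counts per gene, which the authors made with Trim Galore, STAR against mm10 and featureCounts. Versions are not given in the sources used here. The protocols name different library kits, and which was used was not settled. Totals of 8763033 to 16741694 counts set the precision, and no batch or date label was given.

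The counts were tested with edgeR 4.0.16 in R 4.3.3: upper-quartile scaling, expression filter over the 4 groups of sex and exposure (45828 of 55487 genes kept), robust quasi-likelihood fit with sex and exposure as terms, and Benjamini-Hochberg adjustment over all genes tested. Calls needed an adjusted p under 0.05 together with a change of over 1.5-fold. The background share of a gene is the part of its counts expected from the density of reads on receptor genes and its length, and well-counted genes have a share under 25% and a mean of at least 1 CPM. The receptor share was compared by an exact permutation test. Scripts were tested on simulated data.

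Genes named by rule were the 12 with the smallest p in each direction, called or not, with a mean of at least 1 CPM and a background share under 25% (predicted genes and receptors left out), up to 3 of each gene list by p, and *Gda* and *Dll4*. Other genes were named after their values were seen. Of the gene lists, 51 were set out first and 11 were added after values were seen, and all members and lists were chosen with earlier results of these data known. Alternatives were TMM scaling, DESeq2 1.42.0, limma 3.58.1 voom, a likelihood ratio test, other filters, RUVr, background corrections, other sex terms, each sex alone, a replicate block and leaving out each lung. The replicate numbers shared by the exposures do not mark shared animals. Some genes that met these rules are not reported here by name.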

Additional observations from a re-analysis of the deposited data

Results flagged for a closer look

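Among 174 tests of single lungs over the 86 named genes and the receptor share, 16 values stood apart from the other 5 lungs of their group by a gap of more than 0.625 of the group's range. Chance gives about 1 in 20 for a single test, but genes of the same lists are not independent tests and room air M1 was known to carry muscle and squamous reads, so that the tally is not read against chance. That lung accounted for 7 of the values, all high and all muscle or squamous cell genes: *Ttn* at 3950 CPM, *Ckm* at 132 CPM, *Actc1*, cardiac actin, at 115 CPM, *Krtdap*, a keratinocyte protein, at 38.3 CPM, *Sln*, sarcolipin, at 23.7 CPM, *Ly6d* at 22.2 CPM and *Cox6a2*, a muscle subunit of cytochrome oxidase, at 14.7 CPM.

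Room air F6 stood apart for *Tap1* at 141 CPM, for *Plac8* at 44.2 CPM and for the monocyte gene *Ly6c2* at 33.7 CPM, all high. Its nearest room air neighbours had 48.7, 23.9 and 19.1 CPM.

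The other single values were *Pxmp2* at 4.74 CPM in room air M5 (low), *Ckm* at 4.06 CPM in hyperoxia M1 (low), *Krtdap* at 2.89 CPM in hyperoxia F2 (low), *Col1a1* at 313 CPM in hyperoxia M2 (low), *Cox6a2* at 5.76 CPM in hyperoxia M3 (high) and *Fkbp5*, a glucocorticoid-induced chaperone, at 53.8 CPM in hyperoxia M3 (high).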

How the results depend on the processing

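The 17 called genes were lower under every alternative run, though they were chosen in these same lungs and a turn of sign was unlikely. Of their alternative values, 297 still passed the threshold and 196 did not. The number of lower genes was 10 with TMM scaling, 32 with DESeq2, 33 with limma-voom, 34 with the likelihood ratio test, 40, 42 and 49 with 1, 2 and 3 RUVr factors, 5 among genes with a background share under 25%, 1 within males and 138 within females. Leaving out 1 lung gave 1 to 50. The number of higher genes was 52, 65 and 77 with 1, 2 and 3 RUVr factors, 25 within females, 1 with the likelihood ratio test, the receptor share as covariate, a background share under 25%, the exposure averaged over the sexes or males alone, and 0 to 1 when 1 lung was left out. With the animal code as replicate block, 0 genes were higher and 2 lower, 1 of which was among the 17. Deviations of lungs that share a code correlated at −0.303, 0.0596 and −0.166, so that the codes were not read as pairs. The receptor share differed by −0.042 percentage points within males and by 0.207 within females. The log2 change of Gata1 was 0.127 within females and 0.143 with the replicate block, and −0.115 to 0.0605 when 1 lung was left out. The log2 change of Dll4 was 0.0811 with the receptor share, 0.0535 among genes under 25% background, 0.0892 within males and 0.0587 with the replicate block, and −0.203 to 0.00778 when 1 lung was left out. The cause of these moves was not tested. With 6 lungs per group and totals of at most 16741694 counts, smaller changes may have been missed.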

Other observations

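The values of 3 further gene groups, chosen after they were seen, are given beside the median of −0.0854 of well-counted genes. Other lists that are not described had medians below it too. The 22 immediate early response genes, induced within minutes of a stimulus, had a median log2 change of −0.23, with 4 lower at an unadjusted p under 0.05. That count was 11 without room air M1 and 1 with the receptor share as covariate, and the median was 0.07 within males and −0.50 within females. The 20 genes of the unfolded protein response had −0.19 and 5, with 8 without room air M1, a median of −0.08 with the receptor share as covariate, and medians of −0.05 within males and −0.43 within females. The 14 club and goblet cell genes, of the airway lining, had −0.37 and 3, with 2 without room air F6, a median of −0.17 with the covariate, and −0.18 within males and −0.57 within females. None of these lists held a called gene. The difference between the sexes was not tested for lists.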
